A study of Mus musculus with 32 samples.

Results

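A set of 9 marker genes, 5 of adipose progenitors (*Pdgfra*, *Dpp4*, *Pi16*, *Cd34* and *Ly6a*) and 4 of mesothelium (*Msln*, *Upk3b*, *Wt1* and *Krt19*), were followed in 3 fat depots of *Gpr146* knockout mice. They were chosen by name, with earlier results of these data known. All 9 were found among the 24646 genes measured in each depot. The mice were male C57BL/6J animals, 20 weeks of age, that carried a whole-body *Gpr146* deletion (KO) or were wild-type littermates (WT), and mice of both genotypes were fed HFD for 3 months and fasted overnight. Each of 4 mice per genotype gave RNA of eWAT (epididymal white fat), iWAT (inguinal white fat) and BAT (brown fat) for 1 Affymetrix Mouse Gene 2.1 ST array per depot, 24 arrays in all. The deletion is in every cell of the animal, and each array holds RNA of a whole piece of fat, so no value belongs to one cell type. Levels are log2 expression values as the authors deposited them, and the 3 depots were deposited separately with differing medians, so a gene was compared between genotypes only within a depot.

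Adipose progenitors are stromal fibroblasts that can form new fat cells. They carry the PDGF receptor PDGFRA on their surface, and the cells at the start of the lineage, which lie in the connective tissue around the lobules, are known by *Dpp4* and *Pi16*. Mesothelium is the thin epithelium on the outside of visceral fat pads such as eWAT, and it makes mesothelin, uroplakins and keratins. In such bulk tissue, fewer cells of a type and less RNA per cell cannot be told apart.

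The levels in the wild-type depots are given beside the median of all genes on the same arrays, which was 3.13 to 3.17 in eWAT, 3.65 to 3.73 in iWAT and 2.82 to 2.86 in BAT. *Upk3b*, a membrane protein of urothelium and mesothelium, had a mean of 7.39 in wild-type eWAT, 2.98 in iWAT and 2.66 in BAT. *Msln*, the surface protein mesothelin, had a mean of 5.05, 2.51 and 2.29. *Wt1*, a transcription factor of mesothelium and also of visceral fat progenitors, had a mean of 5.04, 3.19 and 2.71, and *Krt19*, a keratin of simple epithelia, 3.56, 2.68 and 2.06. In iWAT and BAT the wild-type means of all 4 mesothelial markers thus lay below the array medians, and differences between genotypes there are differences between low signals. The progenitor markers lay above the array medians in each depot, with wild-type means in BAT of 5.57 (*Pdgfra*), 3.68 (*Dpp4*), 3.68 (*Pi16*), 3.88 (*Cd34*) and 9.68 (*Ly6a*).

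The label check and the arrays that stood apart bear on what follows. *Gpr146* itself was lower in every KO than in every WT mouse in each depot, by 1.53 on the log2 scale in eWAT (adjusted p = 0.0082 from limma), 1.55 in iWAT (adjusted p = 0.221) and 1.16 in BAT (adjusted p = 0.0725). In iWAT, arrays WT 1, WT 2 and KO 2 had a mean of 6 B cell markers between 7.43 and 7.80. KO 4 lay between, at 5.69, and the other arrays had 3.15 to 3.53. In BAT, arrays WT 2, WT 3 and KO 2 had a mean of 7 muscle markers between 6.34 and 7.65, against 2.86 to 3.79. In eWAT the mean of 11 macrophage markers was 8.80 to 9.04 in WT mice and 5.89, 8.49, 6.82 and 6.14 in KO mice 1 to 4, so that KO 2 lay near the WT mice. The B cell markers in eWAT had a mean of 4.11 on KO 3, against 2.48 to 2.87 on the other arrays. The mean of 6 T cell markers was also highest on KO 3, at 3.54 against 2.91 to 3.41.

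In all, 3 of the 5 progenitor markers fell in KO eWAT, as did 10.7% of all genes. *Pdgfra* measured 8.21, 8.25, 8.33 and 8.24 in WT mice 1 to 4 and 6.31, 8.12, 7.16 and 6.91 in KO mice 1 to 4. The WT mice lay close together and the KO mice far apart, with KO 2 just below the lowest WT mouse. The mean went from 8.26 ± 0.05 (SD, n = 4) to 7.12 ± 0.75 (SD, n = 4), a log2 change of -1.13 (SE 0.31, adjusted p = 0.0359 from limma), or 2.19-fold lower.

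*Dpp4*, a membrane peptidase that T cells also carry, measured 6.88, 6.45, 6.17 and 6.53 in WT and 5.48, 6.08, 5.27 and 5.14 in KO eWAT. All KO mice lay below the lowest WT mouse, and KO 2 was again the highest of them. The log2 change was -1.02 (SE 0.21, adjusted p = 0.0154), or 2.02-fold lower. *Ly6a*, which encodes the stem cell antigen SCA-1 and belongs to a family of closely related neighbouring genes that probes may not fully separate, measured 10.19, 10.25, 10.59 and 10.64 in WT and 9.44, 10.06, 9.56 and 9.90 in KO. Its groups did not overlap, and its log2 change was -0.68 (SE 0.16, adjusted p = 0.0225). For these 3 genes no KO mouse reached a WT mouse (p = 0.0286 by a two-sided exact permutation test, below which groups of this size cannot go).

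The other 2 progenitor markers did not pass the threshold. *Pi16*, a peptidase inhibitor made by the same early progenitors as *Dpp4*, measured 5.93, 4.99, 5.59 and 5.50 in WT and 4.78, 5.50, 4.50 and 4.37 in KO. KO 2 lay among the WT mice, the other KO mice lay below all of them, and the log2 change was -0.71 (95% confidence interval -1.30 to -0.13, adjusted p = 0.100). *Cd34*, a surface sialomucin that endothelium also carries, was 5.01, 4.92, 4.75 and 4.81 in WT and 4.49, 4.77, 4.63 and 4.37 in KO, a log2 change of -0.31 (adjusted p = 0.0728). Without KO 2 both passed (*Pi16* -0.95, adjusted p = 0.00849; *Cd34* -0.38, adjusted p = 0.0225), and the change of *Pdgfra* was -1.46. *Pdgfra* lost its call when any array other than KO 2 was left out (adjusted p 0.0630 to 0.0900), and *Ly6a* lost its call without WT 2, WT 3, WT 4, KO 1 or KO 3 (0.0506 to 0.0705).

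Of the 4 mesothelial markers, 2 fell in KO eWAT, as did 10.7% of all genes. *Upk3b* measured 8.29, 7.48, 6.54 and 7.26 in WT and 6.01, 6.07, 5.77 and 5.23 in KO mice. The WT mice were spread over a wide range, and all KO mice lay below it. The mean went from 7.39 ± 0.72 (SD, n = 4) to 5.77 ± 0.38 (SD, n = 4), a log2 change of -1.62 (SE 0.33, adjusted p = 0.0146), or 3.08-fold lower. It was the largest change of the 9 markers in eWAT.

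*Msln* measured 5.85, 4.98, 4.38 and 5.0 in WT and 4.25, 4.22, 4.06 and 3.75 in KO. The groups did not overlap, with a gap between WT 3 and KO 1 that was small beside the spread of the WT mice. The log2 change was -0.98 (SE 0.26, adjusted p = 0.0349). It lost its call without WT 2, WT 4, KO 1, KO 3 or KO 4 (adjusted p 0.0617 to 0.0912) and after quantile normalization (0.0528).

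*Wt1* was 5.23, 5.21, 4.68 and 5.02 in WT and 4.47, 5.10, 4.95 and 4.86 in KO, a log2 change of -0.19 (95% confidence interval -0.55 to 0.17, adjusted p = 0.465). *Krt19* was 4.20, 3.50, 2.97 and 3.56 in WT and 3.31, 3.33, 3.35 and 3.28 in KO, a change of -0.24 (-0.71 to 0.23, adjusted p = 0.487) that was -0.024 without WT 1 and -0.43 without WT 3. Both genes overlapped between genotypes, and the KO values of *Krt19* lay within the WT range. WT 1 was the highest array and WT 3 the lowest WT array for each of the 4 mesothelial markers.

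**Figure D1:**
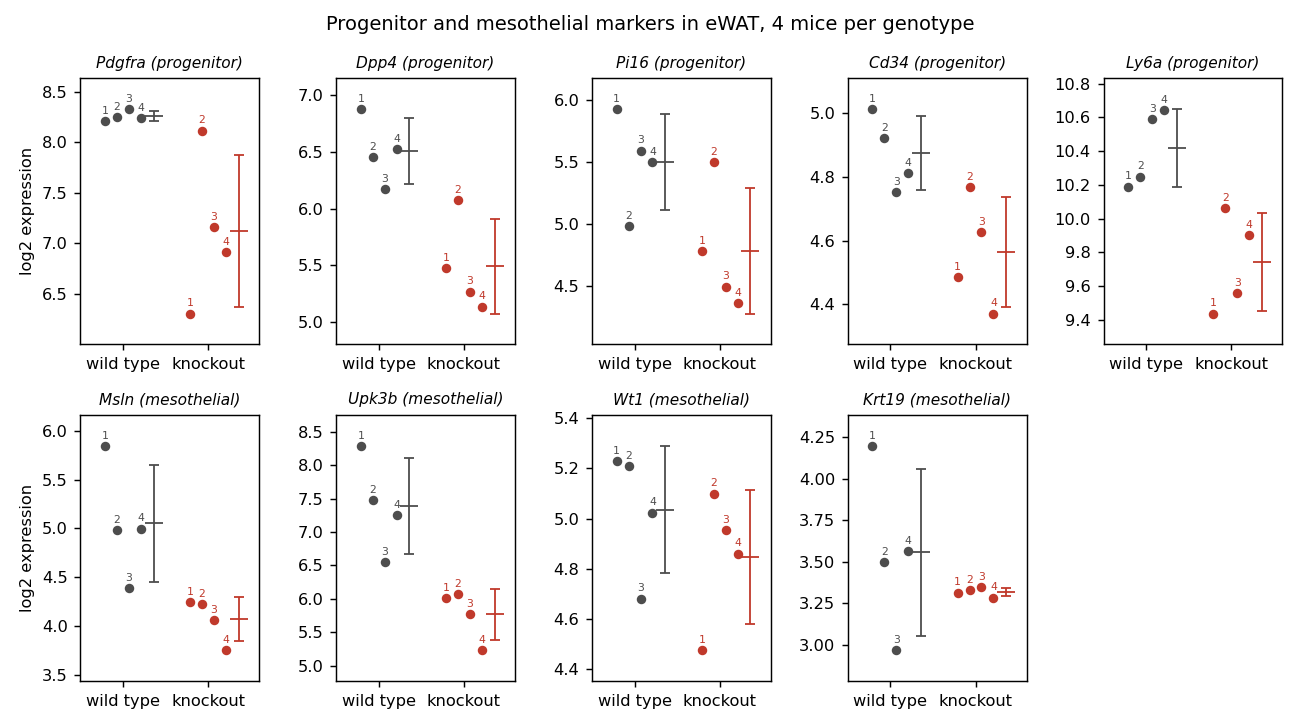
Log2 expression (vertical axis) of the 9 markers in eWAT of 4 wild-type and 4 knockout mice; each point is a mouse with its number, and the bar beside it is the mean ± SD. *Pdgfra*, *Dpp4*, *Ly6a*, *Msln* and *Upk3b* do not overlap between genotypes, and KO 2 is the highest knockout mouse for all 5 progenitor markers.

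In all, 5 of the 9 markers were lower in KO eWAT at an adjusted p below 0.05 and 0 were higher, where 10.7% of all genes were lower and 4.57% higher. The same 5 markers had groups that did not overlap, lower in KO, as had 13% of all genes. The markers were chosen with earlier results of these data known, so these counts are a description and not a test of the set. The median log2 change was -0.71 over the progenitor markers and -0.61 over the mesothelial markers, against 0.03 over all genes. After quantile normalization 3 markers were called (*Dpp4*, *Ly6a* and *Upk3b*), and with the methods' t-test after Benjamini-Hochberg adjustment 0 were, with an adjusted p between 0.0787 and 0.123 for those 5 genes.

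The promoters of 2 markers are shown, the most strongly changed mesothelial and the second most changed progenitor marker in eWAT. They are RefSeq sequences (GRCm38.p6), 5′ to 3′ on the strand of the gene, kept to bases outside the annotated gene, and capitals mark the motifs found. RefSeq windows of 300 bases were held for 5 of the 9 markers, *Pdgfra*, *Dpp4*, *Pi16*, *Cd34* and *Upk3b*. *Dpp4* lies on the minus strand of chromosome 2 (chr2:62412316-62412481), and *Upk3b* on the plus strand of chromosome 5 (chr5:136038246-136038495).
Dpp4: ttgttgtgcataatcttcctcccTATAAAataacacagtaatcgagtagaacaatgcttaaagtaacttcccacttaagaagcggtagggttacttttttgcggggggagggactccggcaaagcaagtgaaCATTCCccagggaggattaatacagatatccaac
Upk3b: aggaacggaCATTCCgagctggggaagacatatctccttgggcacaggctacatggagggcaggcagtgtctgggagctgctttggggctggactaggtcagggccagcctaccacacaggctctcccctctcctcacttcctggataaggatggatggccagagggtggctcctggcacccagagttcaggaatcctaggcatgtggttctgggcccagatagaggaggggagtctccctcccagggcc
The motifs searched on both strands of the 300-base windows were the TATA box (letters TATAAA), the CCAAT box (letters CCAAT), the GC box (letters GGGCGG) and the core that TEAD factors bind (letters CATTCC), the last of which was chosen after the windows had been read. *Dpp4* held 1 TATA box, found in 13.6% of all windows, and 1 TEAD core, found in 14.7%. They began at bases 24 and 133 of a window that has 250 bases before the start position. *Upk3b* held 1 TEAD core, and *Pi16* held 1 CCAAT box, found in 37.4% of windows. The GC box, found in 35.7%, was in none of the 5 windows, and *Pdgfra* and *Cd34* held none of the motifs. These are matches of letters and not sites known to be bound.

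Progenitor and mesothelial markers were then set against each other per mouse, as the mean of the 5 and the mean of the 4 log2 values relative to the WT mean. In eWAT the progenitor mean was -1.01, -0.21, -0.89 and -0.97 in KO mice 1 to 4, against -0.14 to 0.13 in WT. The mesothelial mean was -0.75, -0.58, -0.73 and -0.98 in KO mice and ran from -0.62 in WT 3 to 0.63 in WT 1. Both means were lower in KO, with a difference of -0.77 for progenitor and -0.76 for mesothelial markers, and their difference changed by -0.01 (from 1.85 ± 0.46 to 1.84 ± 0.28, SD, n = 4 each). With single arrays left out this change ran from -0.18 (without WT 1) to 0.18 (without WT 3).

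The mice differed in which class was low. KO 2 had a progenitor mean near that of the WT mice and a mesothelial mean like that of the other KO mice. WT 3 had a progenitor mean like that of the other WT mice and a mesothelial mean lower than that of KO 2. The macrophage markers moved with the progenitor markers rather than with the mesothelial ones on KO 2, at 8.49 against 5.89 to 6.82 on the other KO arrays, and their part in the result was not tested. Markers of epididymal epithelium, which an eWAT piece could hold, had means of 1.93 to 2.03 in WT and 2.02 to 2.27 in KO eWAT, low on every array.

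**Figure D2:**
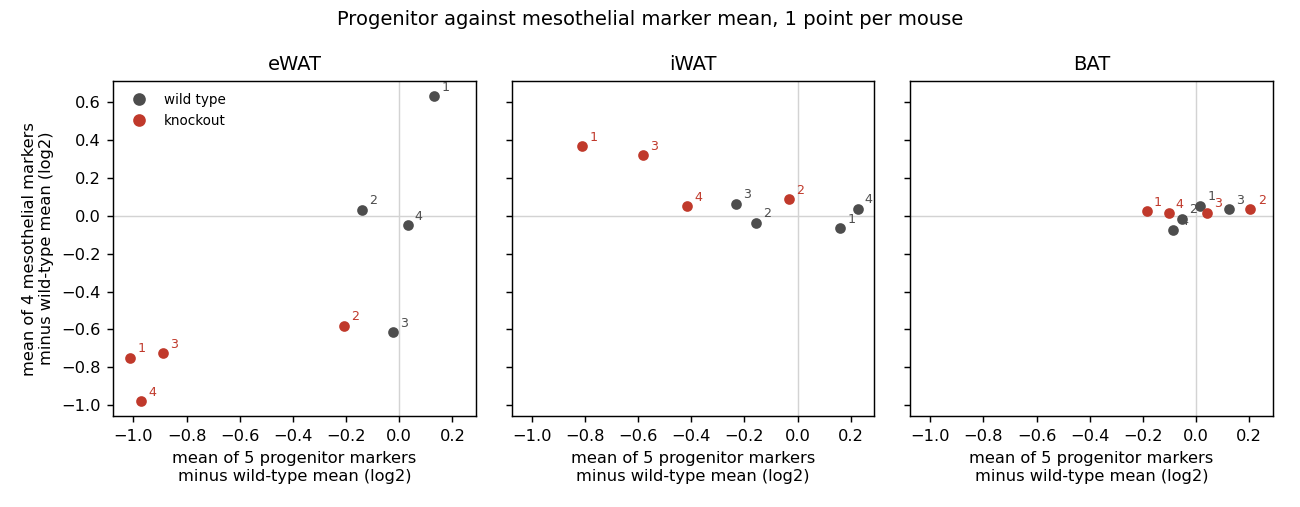
Mean log2 level of the 4 mesothelial markers (vertical axis) against that of the 5 progenitor markers (horizontal axis), each with the mean of the WT mice of that depot taken off, 1 point per mouse with its number. In eWAT KO 1, KO 3 and KO 4 lie low on both axes while KO 2 and WT 3 are low on the mesothelial axis alone, and in iWAT KO 1 and KO 3 lie to the left of and above all WT mice.

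Other genes of these lineages in eWAT are given from lists of marker genes. Their counts stand beside 10.7% of all genes called as lower and 4.57% as higher. The median over all genes was 0.03. Of 10 further markers of interstitial (early) progenitors, 3 fell and 0 rose, with a median log2 change of -0.08. These were *Cd248*, a surface protein of stromal cells also called endosialin (-1.33, SE 0.28, adjusted p = 0.0154), *Fn1*, the matrix protein fibronectin, which macrophages also make (-1.30, SE 0.34, adjusted p = 0.0315), and *Anxa3*, a lipid-binding annexin (-0.58, SE 0.14, adjusted p = 0.0226).

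Of 10 markers of committed preadipocytes, 2 fell and 3 rose (median 0.11). The genes that rose were *Cebpa* (1.13, adjusted p = 0.0082) and *Pparg* (0.61, adjusted p = 0.0203), the transcription factors that drive fat cell formation, and *Fabp4* (0.24, adjusted p = 0.0447), a fatty acid carrier, and mature fat cells make all 3. The genes that fell were the adhesion proteins *Vcam1* (-0.72, adjusted p = 0.0257) and *Icam1* (-0.58, adjusted p = 0.0477). Of 6 markers of adipogenesis-regulating stroma, 2 fell and 0 rose (median -0.56), the cholesterol exporter *Abcg1* (-0.58, adjusted p = 0.0236), which macrophages also make, and the growth factor *Clec11a* (-0.36, adjusted p = 0.0415).

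Of 12 general fibroblast genes, 11 fell (median -0.89), and *Tcf21*, a transcription factor of visceral stroma, did not pass (-0.37, adjusted p = 0.352). The 3 with the smallest p were *Fap*, a membrane protease of activated fibroblasts (-0.66, SE 0.12, adjusted p = 0.0109), *Pdgfrb*, the second PDGF receptor, also of mural cells (-0.93, SE 0.17, adjusted p = 0.0111), and *Col1a1*, a chain of type I collagen (-1.35, SE 0.26, adjusted p = 0.0123). On KO 2 these 12 genes had a mean of 7.26, against 6.40 to 6.53 on the other KO and 7.37 to 7.72 on the WT arrays.

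Of 16 further mesothelial markers, 6 fell and 0 rose (median -0.64). The 3 with the smallest p were *Slpi*, a protease inhibitor of epithelial surfaces (-1.59, SE 0.28, adjusted p = 0.0103), *Igfbp6*, an IGF-binding protein that fibroblasts also make (-1.39, SE 0.26, adjusted p = 0.0117), and *Muc16*, a membrane mucin (-0.99, SE 0.21, adjusted p = 0.0166). The mean of the 16 genes was 5.41, 4.92, 4.48 and 4.95 in WT mice and 4.28, 4.44, 4.25 and 4.17 in KO mice. WT 3 was again the lowest WT array and KO 2 the highest KO array. The groups did not overlap, but the gap between those 2 arrays was small beside the spread of the WT mice. Leaving out single arrays moved the number of these genes called from 6 to between 2 (without WT 2) and 9 (without WT 3), with 3 without WT 4, and that of the 38 progenitor, preadipocyte, stroma and fibroblast genes from 21 to between 6 (without WT 2) and 25 (without KO 2), with 13 without WT 1, 12 without WT 3, 7 without WT 4, 12 without KO 1 and 10 without KO 4. The number of all genes called moved too, from 3758 to 1448 without WT 2, 1659 without WT 4, 2208 without WT 3 and 5430 without KO 2. All these numbers count genes called as lower and genes called as higher.

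The lists of other cell types moved as follows in the same eWAT, beside 10.7% of all genes called as lower and 4.57% as higher. All 11 macrophage markers fell (median -2.22), with the smallest p for the integrin *Itgam* (-2.49), the growth factor receptor *Csf1r* (-1.56) and *Adgre1* (-2.34), which encodes the F4/80 antigen. Of 10 adipocyte markers 8 rose, with the smallest p for *Cfd* (adipsin, 2.32), *Lipe* (hormone-sensitive lipase, 0.63) and *Retn* (resistin, 1.32), and 1, the leptin gene *Lep*, fell (-0.98, adjusted p = 0.0137). Of 10 endothelial markers 2 rose, *Egfl7* (0.91, adjusted p = 0.0103) and *Emcn* (0.42, adjusted p = 0.0231). No gene passed among brown adipocyte, mural, B cell, T cell, muscle, epididymal, surface epithelium, Schwann cell and interferon-stimulated lists. In these lists of 4 to 7 genes, 0 to 2 per list had an unadjusted p below 0.05 from limma, as had 29.8% of all genes. How far these shifts enter the marker values was not tested.

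**Figure D3:**
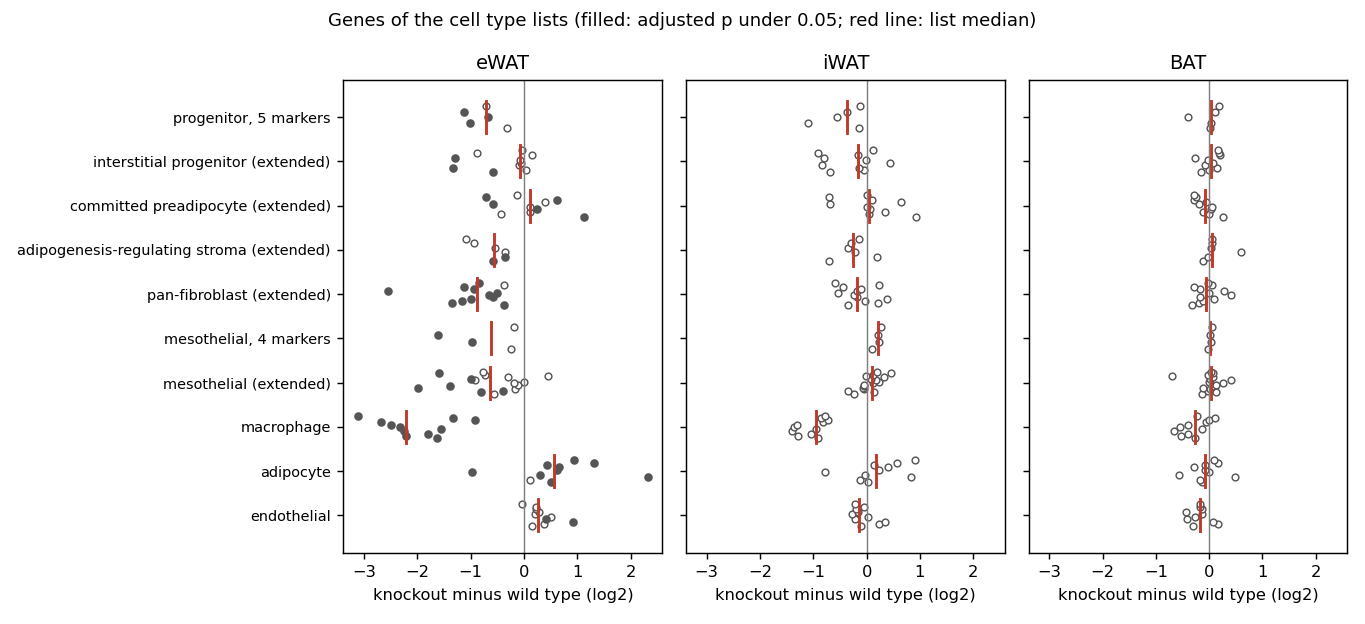
Log2 difference between knockout and wild-type mice (horizontal axis) of each gene of 10 lists in eWAT, iWAT and BAT; each point is a gene, filled where its adjusted p is below 0.05, and the red line is the list median. Filled points occur in eWAT alone, where the filled fibroblast, mesothelial and macrophage genes lie below 0 and the filled adipocyte genes, other than *Lep*, above.

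In iWAT 0 of the 9 markers passed, as did 0% of all genes in either direction by limma, and at an unadjusted p below 0.05 there were 2 markers and 3803 of all genes (15.4%). With the methods' t-test after adjustment 0 markers passed as well, where 1 of all genes did. All 5 progenitor markers had a difference below 0 (median -0.38, all genes 0.02) and all 4 mesothelial markers one above 0 (median 0.22). Of the 16 further mesothelial markers 7 had a difference below 0 (median 0.10), with array means that overlapped, and the 6 epididymal epithelium markers had a median difference of 0.17 and their highest means on KO 1 and KO 3, at 2.89 and 2.59 against 2.29 to 2.40 on the other arrays, whose part in the result was not tested. *Ly6a* measured 10.38, 10.10, 10.43 and 11.07 in WT and 9.50, 10.28, 9.95 and 10.01 in KO iWAT. KO 2 was the only KO mouse above the lowest WT mouse, and the log2 difference was -0.56 (95% confidence interval -1.07 to -0.05, adjusted p = 0.298 from limma). With single arrays left out it ran from -0.69 (without WT 2) to -0.37 (without WT 4, the highest array). *Wt1* measured 3.10, 3.16, 3.10 and 3.39 in WT and 3.50, 3.39, 3.57 and 3.41 in KO, a difference of 0.28 (0.05 to 0.50, adjusted p = 0.264) in which WT 4 overlapped the KO mice.

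*Dpp4* in iWAT split the arrays in another way. It measured 7.01, 6.96, 4.47 and 4.89 in WT and 3.69, 6.40, 4.11 and 4.72 in KO mice. The high arrays, WT 1, WT 2 and KO 2, were those with the high B cell markers. Their T cell markers had means of 6.90, 7.37 and 7.11, against 3.49 to 4.58 on the others, where KO 4 was the highest. The log2 difference was -1.10 with a 95% confidence interval of -2.75 to 0.55. Without these 3 arrays, but with KO 4 kept, it was -0.50 (adjusted p = 0.484 from limma). *Pdgfra* did not split that way, at 7.15, 6.69, 7.49 and 7.78 in WT and 6.66, 7.0, 7.10 and 6.86 in KO, with a difference of -0.38 (-0.87 to 0.12, adjusted p = 0.418) that was -0.77 (adjusted p = 0.148) without them, when 0 markers passed too. Leaving out single arrays moved the *Pdgfra* difference in iWAT to between -0.57 (without WT 2) and -0.21 (without WT 4), and quantile normalization to -0.20, and it was also the median of the 5 progenitor markers in those fits. The remaining markers differed by -0.13 (*Pi16*), -0.14 (*Cd34*), 0.23 (*Msln*), 0.22 (*Upk3b*) and 0.11 (*Krt19*), with adjusted p from 0.406 to 0.810.

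**Figure D4:**
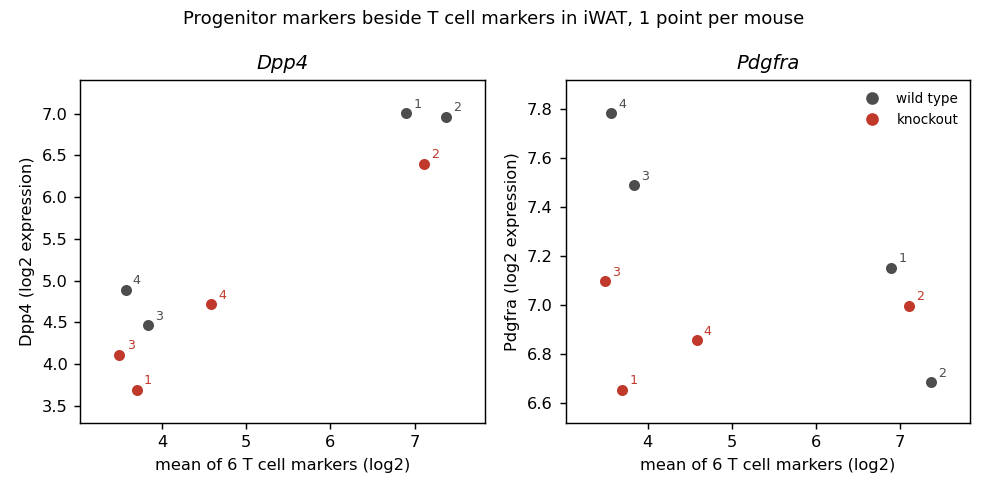
Log2 expression of *Dpp4* (left) and *Pdgfra* (right) in iWAT against the mean of 6 T cell markers on the same array, 1 point per mouse with its number. WT 1, WT 2 and KO 2 are high for T cell markers and for *Dpp4*, at 6.40 to 7.01, and not for *Pdgfra*.

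Per mouse, the progenitor mean relative to WT was -0.81, -0.03, -0.58 and -0.42 in KO iWAT and -0.23 to 0.23 in WT, and the mesothelial mean was 0.37, 0.09, 0.32 and 0.05 in KO and -0.07 to 0.06 in WT. The difference of progenitor and mesothelial means was 3.63 ± 0.25 (SD, n = 4) in WT and 2.97 ± 0.47 (SD, n = 4) in KO, a change of -0.67, of which -0.46 came from the progenitor and 0.21 from the mesothelial markers. *Dpp4* had the largest difference among the progenitor markers, -1.10, against -0.56 to -0.13 for the others. The mesothelial signals were low in this depot. The change of -0.67 was -0.52 after quantile normalization and -0.80 without the 3 arrays high in B cell markers, with KO 4 kept. Among the wider lists none of the genes passed by limma, and 4 of 10 interstitial progenitor, 3 of 12 fibroblast and 0 of 16 mesothelial genes had an unadjusted p below 0.05, beside the 15.4% of all genes. The smallest p among the interstitial progenitor genes were those of *Anxa3* (-0.69, adjusted p = 0.221), *Sema3c*, a secreted semaphorin (-0.91, adjusted p = 0.221), and *Fn1* (-0.80, adjusted p = 0.233). Without KO 2, 4 of the 38 progenitor, preadipocyte, stroma and fibroblast genes passed, where 227 of all genes (0.921%) did, *Anxa3* (-0.79) and *Abcg1* (-0.95) as lower, and *Cebpa* (1.11) and *Lpl*, the lipase of fat cells (0.85), as higher. The 11 macrophage markers had a median difference of -0.96 in the same iWAT, with 9 at an unadjusted p below 0.05.

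In BAT 0 of the 9 markers passed by limma, where 0.0243% of all genes were lower and 0.00406% higher. With the methods' t-test after adjustment 0 markers and 0 of all genes passed. At an unadjusted p below 0.05 from limma there were 12.7% of all genes and 1 marker. This was *Ly6a*, at 9.62, 9.89, 9.48 and 9.73 in WT and 9.01, 9.44, 9.11 and 9.60 in KO. KO 4 lay among the WT mice, and the log2 difference was -0.39 (95% confidence interval -0.70 to -0.08, adjusted p = 0.281). *Pdgfra* was 5.52, 5.49, 5.74 and 5.51 in WT and 5.47, 6.08, 5.77 and 5.40 in KO, a difference of 0.11 (-0.21 to 0.44). *Pi16* differed by 0.18 (-0.08 to 0.45), and the other 6 markers by -0.02 to 0.06.

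The medians over the progenitor and mesothelial markers in BAT were 0.03 and 0.02 (all genes 0.00), and the difference of their means changed by -0.03, from 2.87 ± 0.06 to 2.84 ± 0.17 (SD, n = 4 each). No gene of the wider progenitor, fibroblast and mesothelial lists passed by limma. At an unadjusted p below 0.05 there were 0 of 10 interstitial progenitor, 2 of 12 fibroblast and 2 of 16 mesothelial genes, beside the 12.7% of all genes. Without the arrays high in muscle markers, 0 markers passed as well, and *Ly6a* differed by -0.43.

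**Figure D5:**
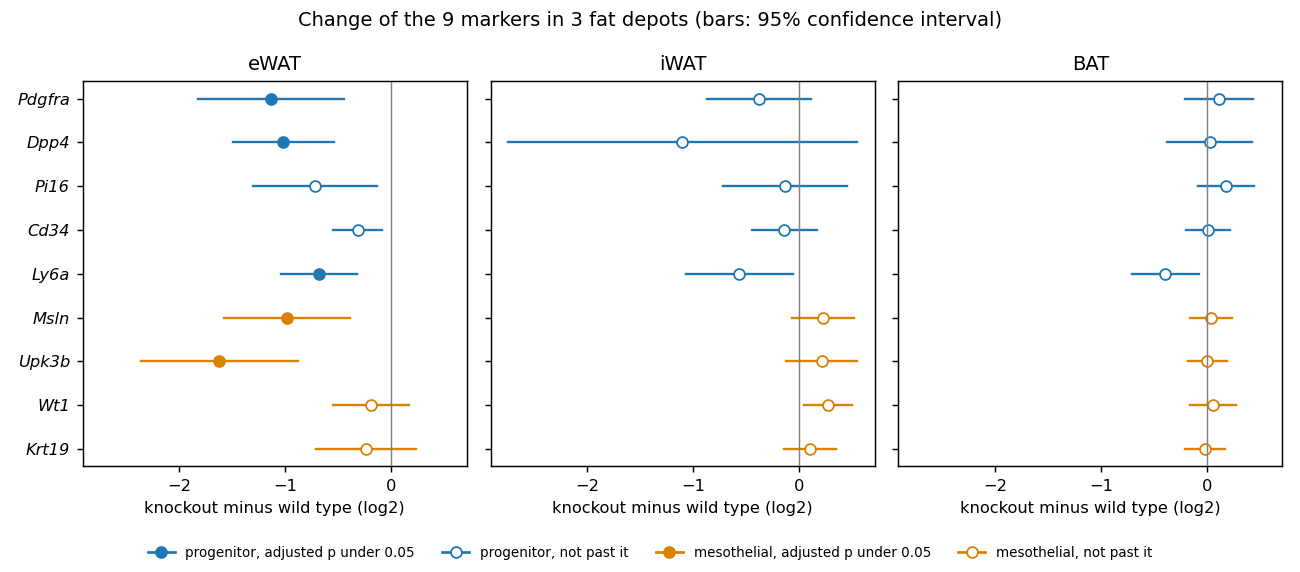
Log2 difference between knockout and wild-type mice (horizontal axis) of the 9 markers in eWAT, iWAT and BAT, as point and 95% confidence interval from limma, filled where the adjusted p is below 0.05. The 5 filled points are all in eWAT, the 4 mesothelial points lie above 0 in iWAT, and the interval of *Dpp4* in iWAT is the widest.

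The KO differences were compared between depots for each marker, by permuting genotype over the mouse numbers, in 27 comparisons. After Benjamini-Hochberg adjustment 0 passed, and 7 had the lowest p that these mouse numbers can give (p = 0.0286, adjusted p = 0.110, by two-sided exact permutation). In eWAT against iWAT these were *Upk3b* (a difference of differences of -1.84) and *Msln* (-1.21). In eWAT against BAT they were *Upk3b* (-1.63), *Pdgfra* (-1.25), *Dpp4* (-1.04), *Msln* (-1.02) and *Pi16* (-0.90). For *Ly6a*, the difference between eWAT and iWAT was -0.12 (exact permutation test, p = 0.486) and between eWAT and BAT -0.29 (p = 0.229). For *Dpp4*, whose iWAT values were split, the eWAT and iWAT differences were 0.08 apart (exact permutation test, p = 0.886).

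Genes with a profile most like that of the markers in eWAT were sought by the root mean square distance of log2 values over the 8 arrays, each profile relative to its WT mean. The nearest to the progenitor mean were *Ppfibp2* and *Man2b2* (a distance of 0.07 each), and *Pitpna* (0.07), while the progenitor markers themselves lay at 0.23 (*Pi16*) to 0.37 (*Pdgfra*). The nearest to the mesothelial mean was *Rspo1*, a WNT agonist on the list of further mesothelial markers (0.12), followed by *Fmod*, a collagen-binding proteoglycan (0.17), and *Spon2*, a secreted matrix protein (0.18). *Msln* lay at 0.19 and *Upk3b*, with its larger change, at 0.64. In iWAT the nearest genes were *Cdkn2aip*, *Bard1* and *Rnps1* for the progenitor mean (0.07 to 0.09) and *D5Ertd605e*, *Olfr1356* and *Stxbp5l* for the mesothelial mean (0.02 to 0.03). In BAT they were *Srpk3*, *Dcun1d1* and *Naa30* (0.03 to 0.05) and *Uimc1*, *Lrrc4* and *Uqcrc2* (0.03 each), where the markers hardly moved.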

How the data were processed

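Expression was measured in eWAT, iWAT and BAT of 4 WT and 4 KO mice, 1 array each. The authors deposited normalized log2 values, 1 per gene symbol. For 840 genes, *Cd34* among them, the identifier was not a whole number, which was read as an average over several probe sets. Averages with a whole-number identifier would be missed, so other markers may rest on several probe sets too. Summarisation, normalization and software are not given in the sources used here. Of each table, 1 or 2 entries without a usable gene name were left out. Per depot, KO and WT were compared over 24646 genes with limma 3.58.1 (R 4.3.3; lmFit, eBayes), with Benjamini-Hochberg adjustment over all genes and a threshold of 0.05. Single values were tested with two-sided exact permutation tests over 70 relabelings. P-values from limma set the difference between genotypes against the spread between mice, and array number limits the precision. The markers and the gene lists were chosen with earlier results of these data known. Genes named beyond the 9 markers are, per list, those past the threshold or, where over 3 or none passed, the 3 with the smallest p; *Gpr146* as label check; and the 3 nearest profiles. *Tcf21*, *Lep*, *Fabp4* and *Icam1* were named outside this rule, after their values were seen. All 147 listed genes were found, 1 under an older symbol. The fits were tested on simulated data. Alternatives were a trended and robust prior, array weights, dim genes left out, quantile normalization, equal array medians, a block for replicate number, each array left out, and the methods' t-test; omission of the arrays high in B cell or muscle markers was chosen after seeing the data. Figures were drawn with matplotlib 3.10.9. Liver arrays were not used here.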

Additional observations from a re-analysis of the deposited data

Results flagged for a closer look

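In 2 of the 54 sets of 4 arrays tested for a lone value, the highest or lowest array stood apart by Dixon's ratio of its gap to the whole range, where chance gives about 1 in 20. *Cd34* in KO iWAT was lowest on KO 1, at 4.09 against 4.42 to 4.47 on the other KO arrays (ratio 0.873). *Pdgfra* in WT BAT was highest on WT 3, at 5.74 against 5.49 to 5.52 (ratio 0.903), an array that also had high muscle markers.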

How the results depend on the processing

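In eWAT 5 markers were called, against 3 after quantile normalization, 0 with the methods' t-test after adjustment, and 2 (without WT 2, WT 4, KO 1 or KO 3) to 7 (without KO 2) when single arrays were left out. Of all 24646 genes, that t-test called 38 in eWAT, against 3758 with limma. Of the other 38 progenitor, preadipocyte, stroma and fibroblast genes 21 were called as lower or higher, with *Cebpa*, *Pparg* and *Fabp4* as higher. With that t-test 0 of them were called, and 6 to 25 without single arrays. Of the other 16 mesothelial genes 6 were called, 0 with that t-test and 2 to 9 without single arrays. In iWAT, 0 markers passed under any alternative run, and 0 to 4 of the 38 genes did without single arrays. In BAT 0 markers passed under any alternative. With the replicate number as a block, 5 markers were called in eWAT and 0 in each of the other depots, and no marker changed its call. Same-numbered mice did not deviate together throughout (r of their deviations across genes from -0.38 to 0.67 in iWAT and 0.00 to 0.16 in eWAT), so the block was not used for the results.

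Directions held in eWAT for all 9 markers under the alternatives run. Differences near 0 changed sign. In BAT, *Upk3b* was -0.000285 with array weights, -0.0146 after quantile normalization and -0.00873 with equal array medians, and *Cd34* was -0.00414 with array weights and -0.000325 with equal medians. With arrays left out, the BAT differences ran from -0.021 to 0.21 (*Pdgfra*), -0.10 to 0.17 (*Dpp4*), -0.030 to 0.092 (*Cd34*), -0.0077 to 0.14 (*Msln*), -0.042 to 0.043 (*Upk3b*) and -0.068 to 0.023 (*Krt19*), the BAT progenitor median from -0.021 to 0.17, and *Pi16* in iWAT from -0.48 to 0.12. The cause was not tested. Signals of the mesothelial markers in iWAT and BAT are low, which limits what differences there can show.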
